A study of Mus musculus with 31 samples.

Results

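Three-dimensional culture was compared with flat culture on the softest substrate of the series. The comparison used 6 of the 29 RNA libraries, the 3 libraries labelled 3D and the 3 labelled 2D-0.5kPa, taken by their labels and not by any measured value. All were cardiac fibroblasts, the cells that make and remodel the connective tissue of the heart, isolated from hearts of C57Bl/6 mice 8 to 12 weeks old. No agent, transgene or altered allele is named for either group. The 3D cells were seeded in a three-dimensional arrangement, and the 2D-0.5kPa cells in a flat layer on a substrate with a stiffness of 0.5 kPa, called soft below. Standard 2D cultures, for which no stiffness is given, flat cultures at 8 and 64 kPa, 2D cultures at 5 days and 3D cultures at 5 days were read beside them, with 3 libraries each. The sources used here do not give the times in culture of the 3D and soft groups, the substrate material, the form of the 3D culture or whether replicates came from separate cultures or mice. P-values therefore measure the spread between libraries, which may be technical.

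Fibroblasts sense stiffness and shape through integrins, focal adhesions and the actin cytoskeleton. Tension in stress fibres sends the coactivator MRTF to the nucleus, where it works with SRF on contractile genes, and keeps YAP and TAZ active at promoters bound by TEAD factors. On rigid plastic, cardiac fibroblasts turn into myofibroblasts, which contain smooth muscle actin, divide and lay down matrix. A soft flat surface lowers tension but leaves the cell spread in a plane, and the question here is what a three-dimensional arrangement changes that such a surface does not.

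The libraries held 18777061 to 26324009 gene counts in 3D and 9053061 to 14345895 on the soft substrate. Levels are given as CPM, the usual depth-scaled unit of RNA counts, with library totals scaled by the TMM method. Differences are log2 ratios with their standard error (SE) from edgeR's quasi-likelihood test, and a gene was called at a Benjamini-Hochberg adjusted p under 0.05. The groups differed in sex-linked genes. Counts of Xist, which is transcribed in female cells, were 15873, 13616 and 8193 in 3D replicates 1, 2 and 3 and 1, 2 and 3 on the soft substrate. The Y-linked gene Ddx3y had 0, 0 and 1012 counts in 3D and 1042, 1031 and 588 on the soft substrate. Preparation and sex of the cells therefore cannot be told apart from the culture. Reads without a unique alignment made up 16.3% to 17.2% in 3D and 17.8% to 28.4% on the soft substrate. Replicates 1 and 2 were alike in 3D, where the SD of their log2 CPM differences over genes was 0.280, while replicate 3 differed from them with an SD of 1.06 and 0.966. On the soft substrate those values were 0.396 for replicates 1 and 2, and 0.706 and 0.695 for replicate 3. For gene groups that depend on it, values are therefore also given for 3D replicate 3 alone, with its spread assumed to be that of the other libraries, and without it. Fibroblast markers such as Col1a1 and Pdgfra were detected in every library of both groups, and their summed level was 23700 to 37600 CPM in 3D and 20400 to 29400 CPM on the soft substrate. In bulk samples, fewer cells of a type and less RNA per cell cannot be told apart.

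Of 14036 genes tested, 3173 (22.6%) were higher in 3D than on the soft substrate and 3270 (23.3%) were lower. Of the genes called, 2855 (20.3% of those tested) changed at least 2-fold, 1654 of them higher (11.8%) and 1201 lower (8.56%). Lowering the stiffness of the flat substrate gave no such number. Between 2D-0.5kPa and 2D-64kPa, edgeR called 0 genes, with 175 genes (1.25%) at an unadjusted p under 0.05, and DESeq2 also called 0. These fits do not pair the replicates. With a replicate block and only these groups in the fit, edgeR also called 0. Such a count does not show that stiffness had no effect. The SD of the log2 ratios over genes was 0.374 for that comparison and 1.26 for 3D against the soft substrate. Both comparisons use the soft libraries, so these values stand side by side and are not independent.

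The largest rise in 3D, by the rule for named genes, was that of Igfbp5. Igfbp5, a secreted binding protein of insulin-like growth factors, stood at 2623, 2850 and 1503 CPM in 3D and at 11.7, 19.5 and 5.17 CPM on the soft substrate, with a log2 difference of 7.56 ± 0.51 (SE, adjusted p = 3.4e-10). The next largest by that rule were Sparcl1 (5.65 ± 0.57), Heyl (5.24 ± 0.62), Tnnt2 (5.02 ± 0.83), Dkk3 (4.995 ± 0.38), Apoe (4.90 ± 0.57), Tnxb (4.67 ± 0.49), Adamtsl2 (4.64 ± 0.58), Gem (4.61 ± 0.18), Ggt5 (4.52 ± 0.21), Htra3 (4.40 ± 0.62) and Eln (4.34 ± 0.76). Heyl is a transcription factor induced by Notch, Dkk3 a secreted protein of the Dickkopf family, Tnxb tenascin-X, Gem a small GTPase and Eln elastin. Gem was evenly separated, at 61.5, 67.8 and 59.2 CPM in 3D against 2.79, 2.81 and 2.00 CPM on the soft substrate. The largest falls were Cxcl5 (-9.06 ± 1.49), Ankrd1 (-5.63 ± 0.54), Cxcl1 (-5.12 ± 0.96), Il6 (-5.03 ± 0.92), Cemip (-4.95 ± 0.31), Serpinb6b (-4.82 ± 0.25), Aspm (-4.62 ± 0.49), Anln (-4.61 ± 0.43), Sprr1a (-4.60 ± 0.83), Cenpf (-4.58 ± 0.53), Cdc20 (-4.49 ± 0.32) and Ddah1 (-4.40 ± 0.27). Cxcl5 and Cxcl1 are chemokines that attract neutrophils, and Aspm, Anln, Cenpf and Cdc20 act in mitosis or cytokinesis. Cemip, which takes part in the breakdown of hyaluronan, went from 1164, 926 and 1291 CPM on the soft substrate to 39.5, 39.8 and 30.3 CPM in 3D.

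**Figure D1:**
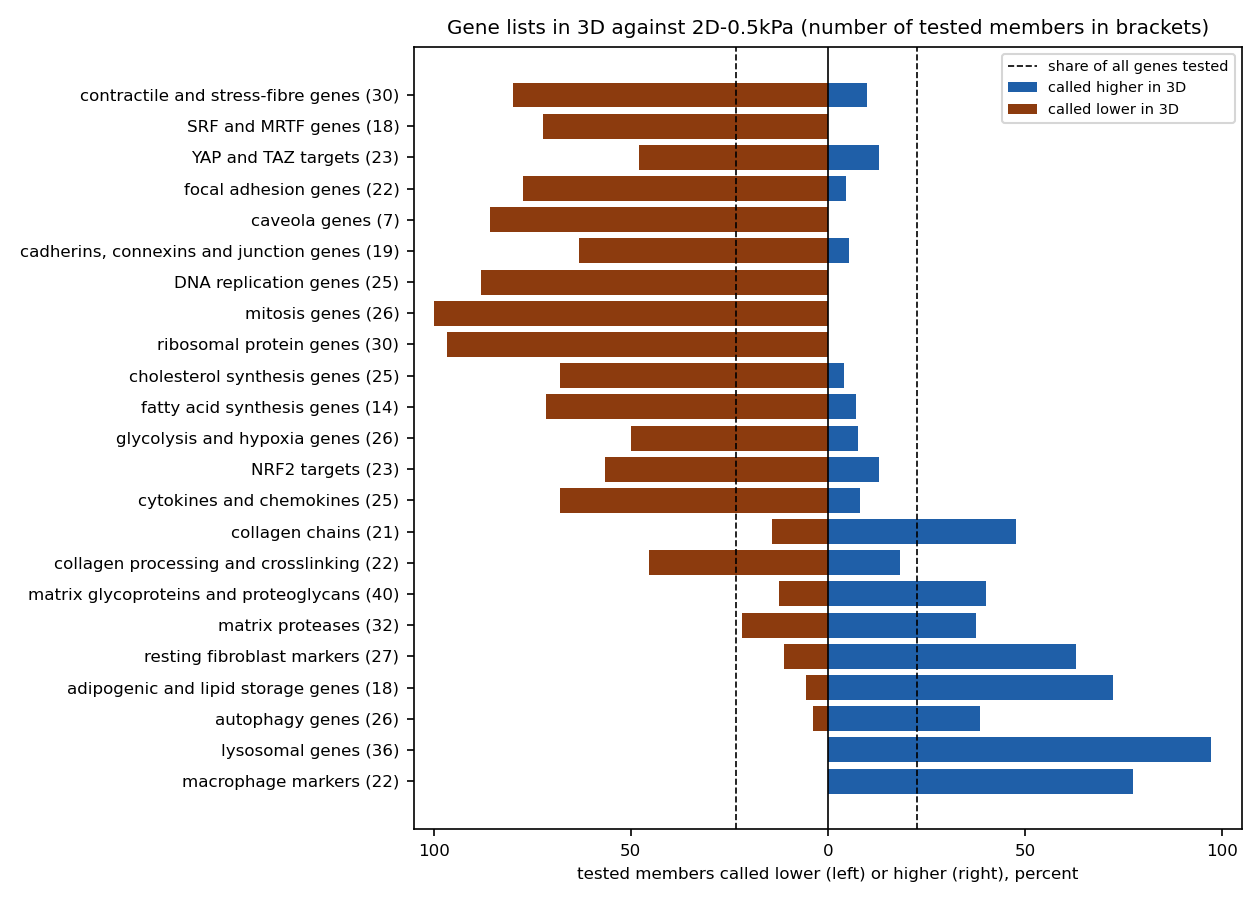
Share of the tested members of 23 gene lists called lower (left bars) or higher (right bars) in 3D than in 2D-0.5kPa, with the number of tested members in brackets and dashed lines at the shares of all genes tested, 23.3% and 22.6%. Mitosis, ribosomal protein and DNA replication genes extend farthest to the left, and lysosomal genes farthest to the right.

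The contractile apparatus stood far lower in 3D than on the soft flat substrate. Of 30 contractile and stress-fibre genes, 24 fell and 3 rose, with a median log2 difference of -1.08 against 0.0269 over all genes tested. For 20 of the 24, all 3D libraries also lay below every one of 15 flat libraries (2D, 2D at 5 days, 0.5, 8 and 64 kPa), a position held by 8.98% of all genes tested. Acta2, smooth muscle actin and the usual marker of the myofibroblast, stood at 50.4, 60.5 and 49.5 CPM in 3D and at 444, 446 and 1105 CPM on the soft substrate. Even the highest 3D library was thus far under the lowest soft library, and the fitted ratio was 12.4-fold (log2 -3.64 ± 0.43, adjusted p = 7.2e-07). Tagln, the actin-bundling protein transgelin, had 23.1, 26.7 and 27.5 CPM in 3D against 218, 236 and 443 CPM (log2 -3.54 ± 0.34, adjusted p = 4.5e-08). Cnn2, a calponin that binds actin, had 63.9, 61.6 and 59.0 CPM in 3D against 323, 336 and 451 CPM, 6.01-fold lower (adjusted p = 2.1e-11). The fall also reached Tpm4, Cald1 and Actn1, which code for a tropomyosin, caldesmon and alpha-actinin, at log2 -1.87 ± 0.12, -1.44 ± 0.11 and -1.80 ± 0.15. Of the 3 that rose, Mylk, which codes for the kinase that switches on myosin, reached 33.7, 35.9 and 10.6 CPM against 3.81, 2.68 and 4.54 CPM (log2 2.87 ± 0.43).

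The soft substrate lay between standard 2D and 3D for these genes. Mean Acta2 was 3066 ± 995 CPM (SD, n = 3) in standard 2D, 626 ± 387 at 64 kPa, 609 ± 328 at 8 kPa, 409.6 ± 9.98 in 2D at 5 days, 665 ± 381 at 0.5 kPa and 53.5 ± 6.11 in 3D. The 3 substrate groups were close to each other, and their order does not hold beyond their spread: the log2 difference between 0.5 and 64 kPa was 0.09, with a 95% interval of -0.67 to 0.84. Within each stiffness, replicate 3 had more Acta2 than replicates 1 and 2, with 988 to 1105 CPM against 366 to 446 CPM. The unpaired fit counts this shared split as spread, which widens the interval. 3D at 5 days was lower still, at 19.1 ± 5.66 CPM.

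A further contrast asked whether the step from standard 2D to 3D differs from the step from 64 to 0.5 kPa, with no library on both sides. The steps start from unlike flat cultures, so a gap between standard 2D and 64 kPa enters the contrast. For Acta2, standard 2D stood far above 64 kPa. The contrast is thus not a measure of 3D against the soft substrate. It holds all 6 libraries of the main comparison with the same sign, so a like direction in the contrast is not independent support. The first step alone called 7576 genes (54%). The contrast of the steps called 5246 genes (37.4%), 2370 with a more positive step to 3D (16.9%) and 2876 with a more negative one (20.5%). With library totals in place of TMM the split was 2928 positive and 2260 negative. Contractile genes were among the most negative: 25 of 30 were called negative and 1 positive, with a median of -1.87. For Acta2 the difference of the steps was -5.93 ± 0.59 (adjusted p = 1.6e-07), and for Tagln -5.81 ± 0.47 (adjusted p = 9.1e-09).

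**Figure D2:**
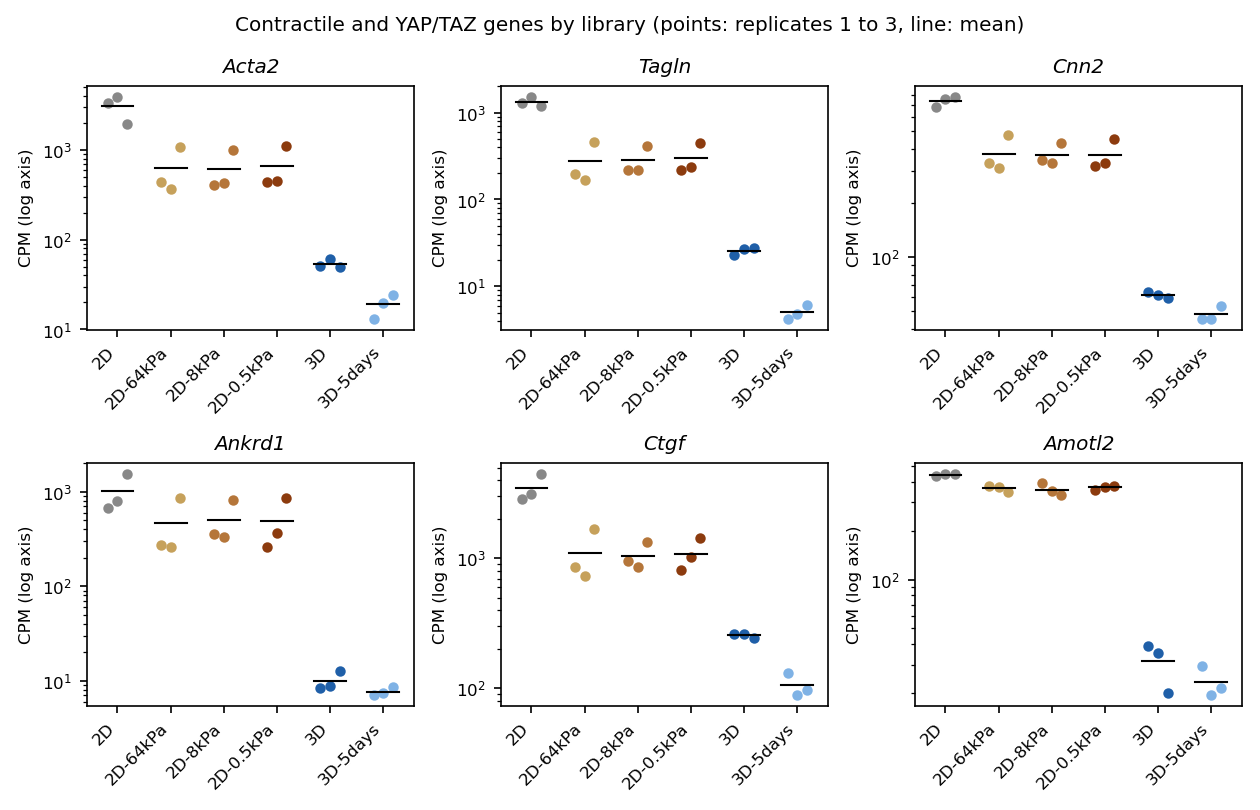
Levels of 6 genes in CPM on log axes in 6 groups of 3 libraries, with points for replicates 1, 2 and 3 from left to right and lines for the mean. The 3 substrate groups overlap each other, and the 3D and 3D-5days points lie under all flat points in each panel shown.

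SRF and MRTF act through the CArG box, and several members of the contractile list carry it near their start. Promoters were taken from RefSeq (GRCm38.p6, the build of mm10), as the 250 bases before each start. A CArG box was read as CC, then 6 bases of A or T, then GG, which matches on both strands at once. It was found for 4 of 26 contractile genes with a promoter in the table (15.4%) and 7 of 14 SRF and MRTF genes, against 159 of 11078 tested genes with a promoter (1.44%). The lists hold known targets of SRF, so a high share is a property of the lists and says nothing of binding in these cells. Stretches of 120 bases are shown for 3 contractile genes that fell in 3D, from 5′ to 3′ on the strand of the gene, with the CArG box in capitals. They lie at chr10:79988480-79988599 (Cnn2, plus strand), chr2:156775253-156775372 (Myl9, plus strand) and chr14:20929148-20929267 (Vcl, plus strand).
Cnn2: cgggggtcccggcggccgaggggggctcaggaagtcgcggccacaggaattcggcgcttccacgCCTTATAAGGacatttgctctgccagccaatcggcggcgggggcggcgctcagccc
Myl9: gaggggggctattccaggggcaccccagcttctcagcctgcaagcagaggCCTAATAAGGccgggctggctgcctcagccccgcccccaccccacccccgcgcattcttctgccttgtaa
Vcl: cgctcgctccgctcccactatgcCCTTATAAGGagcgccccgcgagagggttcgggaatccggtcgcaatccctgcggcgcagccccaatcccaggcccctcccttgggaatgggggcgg

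Myl9, a regulatory light chain of myosin, had 6.81, 8.07 and 4.65 CPM in 3D and 55.9, 60.0 and 86.2 CPM on the soft substrate (log2 -3.38 ± 0.39). Vcl, the focal adhesion protein vinculin, had 155, 153 and 158 CPM against 252, 258 and 448 CPM (log2 -1.04 ± 0.24). Both were chosen for the box in their promoter, after their values were seen. Of 18 SRF and MRTF genes, 13 fell and 0 rose. Fhl2, a cofactor that is itself a target of SRF, fell from 76.9, 69.8 and 129 CPM to 22.1, 26.8 and 24.5 CPM (adjusted p = 1.1e-06).

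Targets of YAP and TAZ moved less uniformly. Of 23 tested, 11 fell and 3 rose, with a median of -0.72. Ankrd1, a nuclear ankyrin-repeat protein and a standard readout of YAP, had 8.33, 8.79 and 12.6 CPM in 3D against 263, 364 and 859 CPM, a 49.7-fold difference (adjusted p = 4.3e-08). Its difference of steps, -6.76 ± 0.68, was the most negative among the genes the rule considers (adjusted p = 2.2e-07). Amotl2, which holds YAP at cell junctions and is also its target, had 39.0, 35.1 and 20.0 CPM against 358, 371 and 379 CPM (log2 -3.56 ± 0.18). Ctgf fell by 2.09 ± 0.30 on the log2 scale and Cyr61 by 1.58 ± 0.54, both matricellular CCN proteins. Cyr61 rests unevenly on the libraries, with 383, 355 and 22.0 CPM in 3D against 636, 670 and 971 CPM. Against the direction of the list, Gadd45a, a stress-induced growth arrest gene, rose from 14.8, 18.95 and 12.5 CPM to 97.2, 107 and 129 CPM.

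TEAD factors recognise GGAATG, which stood on either strand in the upstream window of 7 of 17 YAP and TAZ targets (41.2%), against 13.1% of tested genes. It was as common among contractile genes, at 11 of 26 (42.3%). The windows of the targets with the largest falls are shown with GGAATG or its complement CATTCC in capitals, at chr19:36119902-36120021 on the minus strand (Ankrd1) and chr9:102717684-102717803 on the plus strand (Amotl2).
Ankrd1: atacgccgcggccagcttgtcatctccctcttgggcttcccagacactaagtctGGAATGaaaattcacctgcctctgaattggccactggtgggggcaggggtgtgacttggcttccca
Amotl2: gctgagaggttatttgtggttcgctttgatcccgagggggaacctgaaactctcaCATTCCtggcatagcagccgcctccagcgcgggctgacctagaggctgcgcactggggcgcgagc

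Structures that tie the cytoskeleton to the surroundings were lower as well. Of 22 focal adhesion genes, 17 fell and 1 rose, with Parva (log2 -1.52 ± 0.13), Zyx (-1.22 ± 0.20), Fermt2 (-0.89 ± 0.09) and Ptk2 (-0.82 ± 0.13), which code for parvin, zyxin, kindlin-2 and focal adhesion kinase. Among 16 integrins, 7 fell and 3 rose. Itgb1, the common beta subunit of collagen and fibronectin receptors, went from 1466, 1468 and 1805 CPM to 814, 818 and 1054 CPM, while Itgb5 rose from 750, 649 and 497 CPM to 1194, 1311 and 1528 CPM. Only 1 integrin fell with 3D replicate 3 alone.

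Caveolae, the membrane pits that flatten under stretch, showed a steep fall. Of 7 genes, 6 fell. Cav1, the coat protein caveolin-1, had 6.04, 7.55 and 16.6 CPM in 3D against 67.8, 62.2 and 242 CPM (log2 -3.60 ± 0.58, adjusted p = 3.8e-05). Ptrf, which codes for cavin-1, fell by 1.67 ± 0.21 and Sdpr, which codes for cavin-2, by 3.89 ± 0.46 on the log2 scale. Of 19 cadherin, connexin and junction genes, 12 fell and 1 rose. N-cadherin (Cdh2), with 224, 244 and 345 CPM in 3D against 876, 870 and 808 CPM, and cadherin-11 (Cdh11, log2 -1.68 ± 0.18) were among those that fell.

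Genes of cell division were lower in 3D. All 26 tested mitosis genes fell (median -3.74), and for 17 of them the 3D libraries lay under all 15 flat libraries. The mean log2 level of the mitosis list was 2.995, 2.69 and 1.085 in 3D and 5.63, 5.77 and 6.61 on the soft substrate. In flat 2D at 5 days it was 3.40, 3.35 and 3.43, so those flat cells were also far below the soft substrate, though above 3D. Of 25 DNA replication genes, 22 fell and 0 rose (median -1.97), but the 3D libraries lay under all flat libraries for only 4 of them. The mean log2 level of that list was 3.53, 3.31 and 2.46 in 3D, 4.42, 4.68 and 5.64 on the soft substrate, and 3.43, 3.13 and 3.13 in flat 2D at 5 days, which overlapped 3D. Cdc20, the activator of the anaphase-promoting complex, had 4.77, 4.25 and 2.22 CPM in 3D against 62.6, 72.9 and 115 CPM (log2 -4.49 ± 0.32, adjusted p = 4.9e-10). Mki67, the antigen used to count cycling cells, had 42.0, 29.6 and 2.01 CPM against 211, 184 and 584 CPM. Replicate 3 was the lowest 3D library for both genes, and the soft replicate 3 the highest of its group. Tyms and Rrm1, which supply nucleotides, fell by 2.07 ± 0.20 and 2.18 ± 0.24 on the log2 scale. In the contrast of steps, which shares the libraries of the main comparison, all 26 mitosis genes were negative, with a median of -4.16. All 26 were called lower without 3D replicate 3.

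Mitotic promoters share the CCAAT box, bound by NF-Y, and the CHR element TTTGAA, bound by the complexes that silence these genes in resting cells. On either strand, CCAAT stood upstream of 19 of 22 mitosis genes with a promoter (86.4%, against 40.1% of tested genes) and TTTGAA of 9 of 22 (40.9%, against 12.7%). CCAAT was also common upstream of cholesterol synthesis genes (16 of 17, 94.1%) and DNA replication genes (12 of 19, 63.2%), but not of lysosomal genes (32.1%). The lists were written by hand, so a high share is a property of the list and says nothing of binding in these cells. Each motif was searched on its own, and CCAAT and TTTGAA can share a T. Over all 32851 promoters of the table, counted singly, the shares were 33.8% and 16.0%. The stretches next to the start are shown for 3 genes that carry both, with both motifs or their complements in capitals, at chr4:118437344-118437463 on the minus strand (Cdc20), chr7:80294356-80294475 on the plus strand (Prc1) and chr19:37376262-37376381 on the plus strand (Kif11).
Cdc20: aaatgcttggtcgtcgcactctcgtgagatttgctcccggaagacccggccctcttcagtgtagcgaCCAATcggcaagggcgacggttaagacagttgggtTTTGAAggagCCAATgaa
Prc1: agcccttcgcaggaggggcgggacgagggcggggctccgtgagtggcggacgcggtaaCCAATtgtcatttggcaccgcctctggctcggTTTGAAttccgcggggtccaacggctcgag
Kif11: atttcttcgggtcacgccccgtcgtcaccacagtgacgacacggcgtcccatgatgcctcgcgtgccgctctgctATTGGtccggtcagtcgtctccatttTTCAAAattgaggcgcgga

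Prc1, which bundles microtubules of the central spindle, fell by 4.09 ± 0.41 on the log2 scale, and Kif11, the kinesin that separates spindle poles, by 3.73 ± 0.47. They were chosen for their promoters, after their values were seen. A list of 17 cell cycle regulators, with inhibitors of cyclin-dependent kinases, D cyclins and pocket proteins, held 3 that rose and 7 that fell. Cdkn1a, the p53-induced inhibitor p21, rose from 293, 307 and 307 CPM to 486, 493 and 581 CPM (log2 0.78 ± 0.12, adjusted p = 1.9e-05). Cyclin D2 (Ccnd2) fell from 743, 787 and 1148 CPM to 140, 158 and 377 CPM. Among 25 FoxO targets and growth arrest genes, 9 rose and 5 fell, with Klf9 (log2 1.60 ± 0.16), Sesn1 (1.78 ± 0.24) and Pik3ip1 (2.49 ± 0.26), an inhibitor of PI3 kinase, among the rises. Of 14 BCL2 family genes 5 rose and 3 fell, and 2 rose and 0 fell by edgeR with only the 3D and soft libraries in the fit. The largest of those rises was that of Bmf, which triggers death of detached cells, at 39.8, 46.5 and 74.1 CPM in 3D against 4.10, 3.22 and 0.949 CPM (log2 4.23 ± 0.43).

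Ribosomal protein genes shifted together by a small amount. Of 30 tested, 29 fell and 0 rose, with a median of -0.57, and for 24 the 3D libraries lay under all 15 flat libraries. Rps2 had 821, 848 and 952 CPM in 3D and 1396, 1444 and 1451 CPM on the soft substrate (log2 -0.71 ± 0.10, adjusted p = 1.1e-05). In 3D at 5 days 11 of the 30 were lower than on the soft substrate, with a median of -0.20. Scaling by library totals left 28 of the 30 called lower. Counts of ribosomal protein genes share reads with processed pseudogenes, so their levels depend on how such reads were counted.

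Collagen chains and matrix glycoproteins changed in both directions, and the main fibrillar collagens did not pass the test. Col1a1 had 12880, 14300 and 9472 CPM in 3D and 9669, 8130 and 6563 CPM on the soft substrate (log2 0.59 ± 0.33, adjusted p = 0.15). For Col3a1 the difference was 0.83 ± 0.62 (adjusted p = 0.28) and for fibronectin (Fn1) -0.32 ± 0.19 (adjusted p = 0.18). Among 21 collagen chains, 10 rose and 3 fell (median 0.63). The mean log2 level of that list was 8.83, 8.97 and 8.81 in 3D and 8.57, 8.28 and 8.18 on the soft substrate. Other flat cultures matched or exceeded 3D, with 9.18, 9.10 and 8.21 in standard 2D and 9.12, 9.49 and 9.495 in flat 2D at 5 days. Col6a1, a chain of the beaded filaments around cells, rose from 352, 282 and 412 CPM to 1270, 1435 and 899 CPM, and Col15a1 and Col4a2 of the basement membrane zone by 1.80 ± 0.27 and 0.90 ± 0.13. Col8a1, a short-chain collagen, fell from 799, 810 and 789 CPM to 124, 136 and 361 CPM. Postn, the matricellular protein periostin, rose from 326, 272 and 465 CPM to 1561, 1734 and 907 CPM (log2 1.98 ± 0.29).

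The 40 glycoproteins and proteoglycans of the matrix included 16 that rose and 5 that fell. Their mean log2 level was 8.29, 8.41 and 7.805 in 3D and 7.47, 7.32 and 6.75 on the soft substrate. In flat 2D at 5 days it was 7.77, 8.485 and 8.49, which overlapped 3D. Tnxb had 661, 645 and 372 CPM in 3D against 29.5, 23.4 and 12.9 CPM, and Tgfbi 449, 473 and 313 CPM against 84.1, 49.0 and 52.0 CPM. Cilp, a cartilage and heart matrix protein, was nearly absent from the soft libraries, at 0.0733, 0.134 and 0.422 CPM, and stood at 61.8, 68.7 and 6.04 CPM in 3D. With 3D replicate 3 alone 9 of the 40 rose, and without it 16.

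Enzymes that crosslink collagen went the other way. Of 22 collagen processing and crosslinking genes, 10 fell and 4 rose. Lox, lysyl oxidase, had 211, 236 and 772 CPM in 3D and 2866, 2848 and 1662 CPM on the soft substrate (log2 -2.60 ± 0.45, adjusted p = 8.6e-05). Loxl3 and Loxl4 of the same family fell by 2.30 ± 0.21 and 1.68 ± 0.17 on the log2 scale, and P4ha3, a collagen prolyl hydroxylase subunit, by 2.24 ± 0.17. For all 4 the 3D libraries lay under the 15 flat libraries. With 3D replicate 3 alone, 0 of the 4 rises of the list were called by edgeR.

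Proteases that degrade matrix included several of the most clearly separated rises. Of 32 tested matrix proteases, 12 rose and 7 fell. Mmp11, stromelysin-3, had 738, 837 and 741 CPM in 3D against 44.3, 40.7 and 31.4 CPM (log2 4.31 ± 0.18, adjusted p = 1.3e-13). Mmp2, gelatinase A, had 4121, 4613 and 2376 CPM against 416, 380 and 233 CPM (log2 3.43 ± 0.25), and Mmp14, the membrane protease that activates it, 1639, 1860 and 2572 CPM against 596, 584 and 446 CPM (1.90 ± 0.14). All 3D libraries exceeded all 15 flat libraries for these 3 genes, which 8.65% of all genes tested did. Adamts15, a protease of large proteoglycans, had 87.8, 99.5 and 24.1 CPM in 3D and 0.147, 0.0670 and 0.106 CPM on the soft substrate. It was chosen after its values were seen. Their steps from 2D to 3D exceeded the step from 64 to 0.5 kPa by 4.60 ± 0.23 for Mmp11, 3.79 ± 0.33 for Mmp2 and 1.90 ± 0.19 for Mmp14 on the log2 scale.

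The inhibitors of these proteases were split. Timp1, an inhibitor of metalloproteinases, fell from 2408, 3048 and 1298 CPM to 363, 422 and 437 CPM. Serpine2, protease nexin-1, rose from 230, 223 and 130 CPM to 942, 1059 and 784 CPM, and Cst3, the cathepsin inhibitor cystatin C, by 1.68 ± 0.23 on the log2 scale. In total 3 of 11 inhibitors rose and 5 fell.

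**Figure D3:**
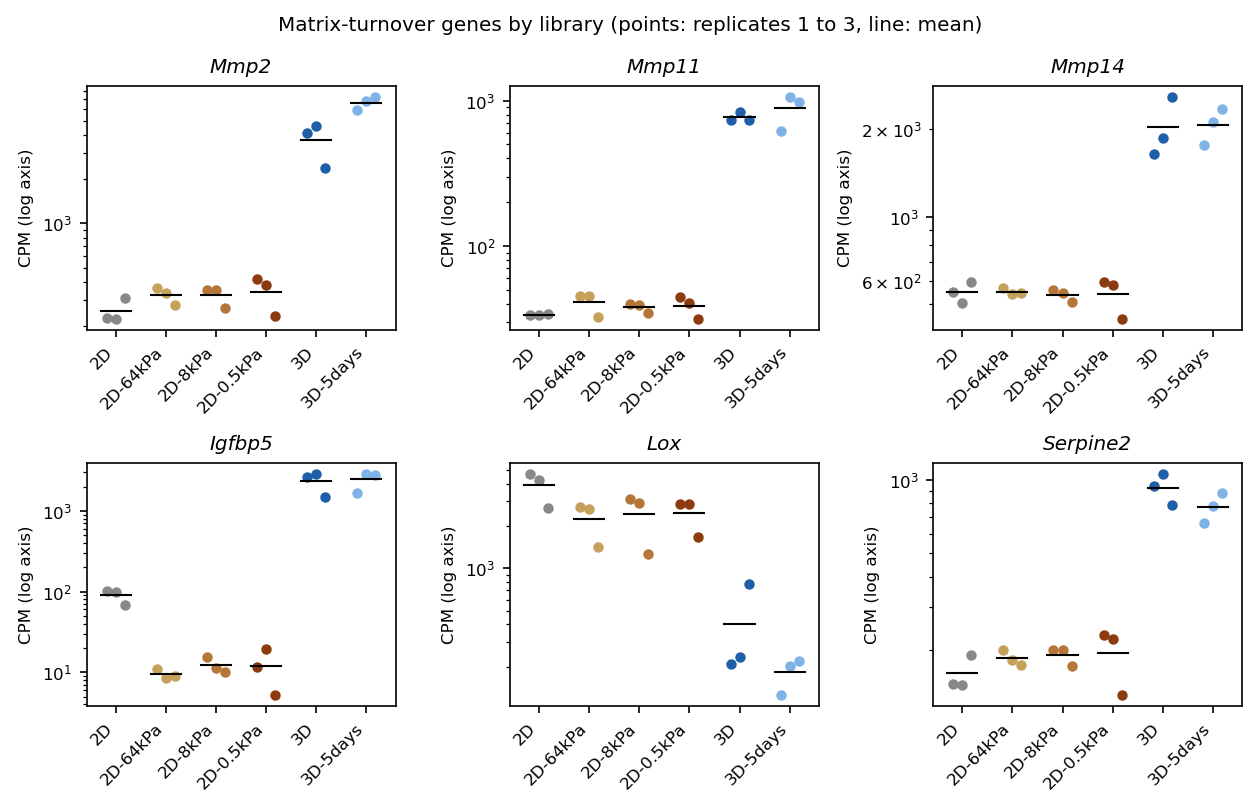
Levels of 6 matrix-turnover genes in CPM on log axes in 6 groups of 3 libraries, with points for replicates 1, 2 and 3 from left to right and lines for the mean. Mmp2, Mmp11, Mmp14, Igfbp5 and Serpine2 are higher and Lox is lower in 3D than in all flat libraries shown.

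Genes of resting fibroblasts were higher in 3D. Of 27 tested, 17 rose and 3 fell, with a median of 1.80. The 3D libraries lay above all 15 flat libraries for 3 of the 27, near the share of all genes, 8.65%. The mean log2 level of the list was 6.06, 6.22 and 5.02 in 3D, 4.63, 4.34 and 3.62 on the soft substrate, and 5.30, 6.21 and 6.12 in flat 2D at 5 days, so flat cells at 5 days overlapped 3D. Smoc2, a secreted calcium-binding matrix protein, had 127, 147 and 45.5 CPM in 3D against 10.0, 4.76 and 4.11 CPM (log2 4.06 ± 0.41, adjusted p = 1.0e-07), and Cygb, cytoglobin, 623, 716 and 488 CPM against 104, 75.4 and 38.7 CPM. Scara5 rose by 3.72 ± 0.42 and Abca8a by 2.33 ± 0.28. Tcf21, the transcription factor of cardiac fibroblast precursors, rose by 1.09 ± 0.32 (adjusted p = 0.0083), a call that was lost without 3D replicate 3 (0.71, adjusted p = 0.079 by edgeR). Its level was 46.8, 51.9 and 92.2 CPM in 3D, 39.3, 26.2 and 23.9 CPM on the soft substrate and 139, 259 and 256 CPM in flat 2D at 5 days. Pdgfra, the surface marker of the lineage, differed by -0.01 ± 0.20 (95% interval -0.40 to 0.38). The rises numbered 10 of 27 for 3D replicate 3 alone and 16 without it.

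Adipogenic and lipid storage genes rose in 13 of 18 cases, with 1 fall and a median of 1.65. Plin2, a lipid droplet coat protein, had 793, 666 and 355 CPM in 3D against 158, 150 and 121 CPM (log2 2.08 ± 0.22, adjusted p = 1.5e-07). Cebpa had 203, 158 and 83.3 CPM against 18.6, 12.5 and 15.7 CPM, and Pparg 14.8, 10.8 and 6.53 CPM against 1.54, 1.94 and 2.53 CPM, both transcription factors of fat cell differentiation. Cebpd, which acts early in that program, fell by 2.85 ± 0.41 on the log2 scale. Macrophages express some of these genes too, and their markers moved with the same libraries, as given below. With 3D replicate 3 alone 8 of the 18 rose, and the part of macrophage RNA in this list was not tested.

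Of 25 cholesterol synthesis genes, 17 fell and 1 rose (median -1.01). For 16 of them the 3D libraries were below all 15 flat libraries. Srebf2, the transcription factor that controls the pathway, had 81.3, 69.9 and 77.9 CPM in 3D against 168, 146 and 211 CPM, and Sc5d and Stard4, a late enzyme and a sterol carrier, fell by 1.22 ± 0.16 and 1.99 ± 0.25 on the log2 scale. Fatty acid synthesis genes fell in 10 of 14 cases. With 3D replicate 3 alone the falls numbered 8 cholesterol genes and 3 fatty acid genes, and without soft replicate 3 they numbered 12 and 9. In 3D at 5 days 8 of the 25 cholesterol genes were lower than on the soft substrate.

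Of 36 lysosomal genes, 35 were higher in 3D and 0 lower (median 1.20), the most uniform rise among the lists described here. All 36 were positive in the contrast of steps (median 1.49), which shares the libraries of the main comparison. For 25 genes the 3D libraries lay above all 15 flat libraries. Lamp1, the main membrane glycoprotein of the lysosome, had 2050, 1985 and 1828 CPM in 3D against 990, 972 and 908 CPM (log2 1.03 ± 0.10, adjusted p = 3.9e-08). Manba, beta-mannosidase, had 89.1, 91.8 and 96.3 CPM against 37.3, 35.2 and 36.1 CPM (adjusted p = 4.2e-10). The protease Ctsf and the sialidase Neu1 each rose by 1.75 on the log2 scale, with SE of 0.13 and 0.15. Macrophages are rich in lysosomes, and their summed markers were 12200 and 8760 CPM in 3D replicates 1 and 2, 867 CPM in 3D replicate 3 and 883 to 2000 CPM on the soft substrate. In 3D replicate 3 that sum lay under the soft range, and 586 CPM of it was Lgmn, against 149, 118 and 118 CPM on the soft substrate. By mean log2 level the macrophage markers stood at 2.74 there, against 4.74, 3.68 and 3.80 on the soft substrate. The mean log2 level of the lysosomal list in 3D replicate 3 was 8.41, against 7.49, 7.395 and 7.22 on the soft substrate. The part of macrophage RNA in the levels of the other 3D libraries was not tested.

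Many lysosomal promoters carry CACGTG, the core of the element bound by TFEB. It was found upstream of 11 of 28 lysosomal genes with a promoter (39.3%), against 9.69% of tested genes. A palindrome was counted as 1 match. Here too a high share is a property of the hand-written list and says nothing of binding in these cells. Stretches of 3 promoters are shown with CACGTG in capitals, Lamp1 with 4 copies and Mcoln1 with 2, at chr8:13159041-13159160 (Lamp1, plus strand), chr8:3500399-3500518 (Mcoln1, plus strand) and chr7:142387860-142387979 (Ctsd, minus strand).
Lamp1: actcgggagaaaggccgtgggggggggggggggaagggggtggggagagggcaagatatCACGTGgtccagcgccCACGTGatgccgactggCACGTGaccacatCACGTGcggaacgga
Mcoln1: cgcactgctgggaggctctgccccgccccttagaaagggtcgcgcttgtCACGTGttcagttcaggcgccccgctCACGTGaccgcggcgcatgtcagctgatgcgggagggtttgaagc
Ctsd: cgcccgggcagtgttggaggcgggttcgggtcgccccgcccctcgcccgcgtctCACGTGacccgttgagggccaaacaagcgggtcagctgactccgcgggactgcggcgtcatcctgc

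Mcoln1, the calcium channel of the lysosome, had 74.4, 75.9 and 104 CPM in 3D against 39.4, 37.3 and 38.3 CPM. Ctsd, cathepsin D, had 10470, 8625 and 3479 CPM against 2113, 1636 and 1588 CPM, with the lowest 3D value in the replicate with the fewest macrophage markers. Lamp1, Mcoln1 and Ctsd were chosen for their promoters, after their values were seen. Of 26 autophagy genes, 10 rose and 1 fell. Gabarap and Map1lc3b, coat proteins of the autophagosome, rose by 0.75 ± 0.07 and 0.74 ± 0.11, and Sqstm1, the cargo receptor p62, by 0.91 ± 0.11 on the log2 scale.

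**Figure D4:**
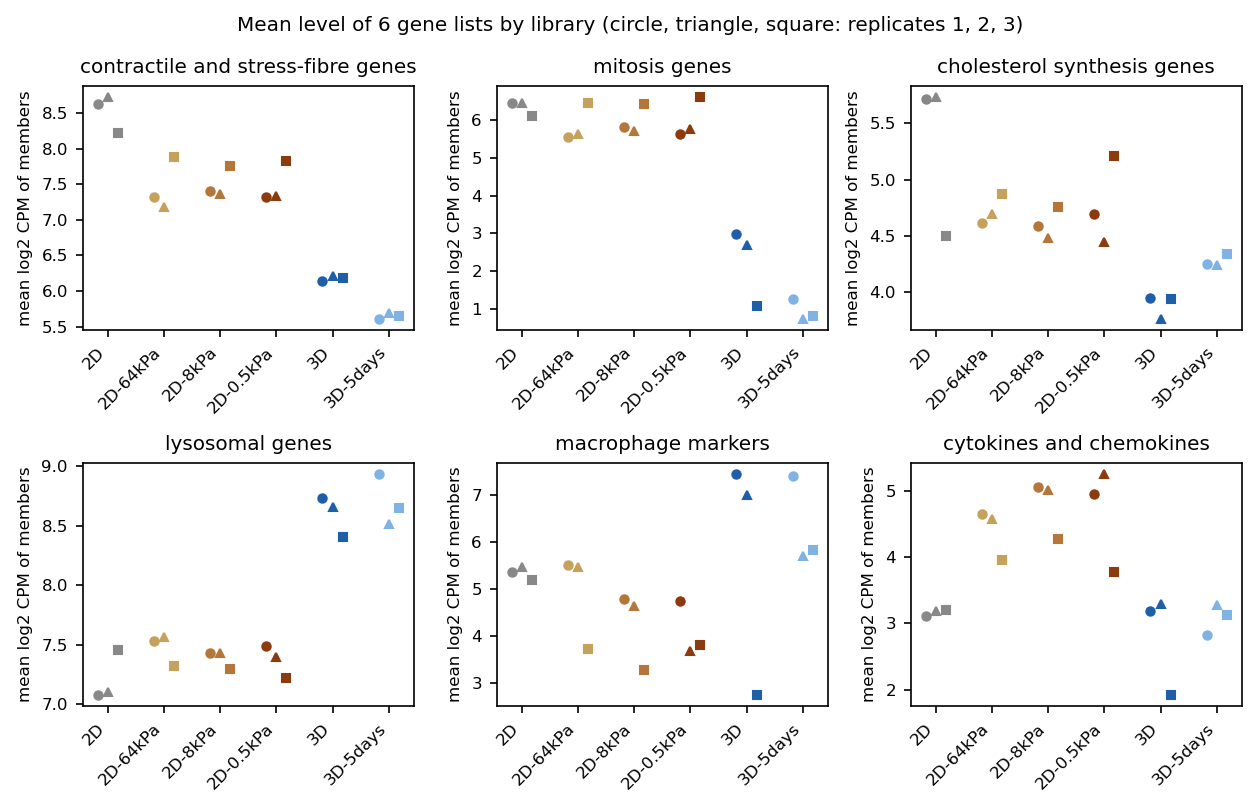
Mean log2 CPM over the members of 6 gene lists in each library of 6 groups, with circles, triangles and squares for replicates 1, 2 and 3. Contractile, mitosis and cholesterol synthesis genes are lowest and lysosomal genes highest in the 3D groups, macrophage markers are high in 3D replicates 1 and 2 but not in 3D replicate 3, and cytokines are lower in standard 2D and 3D than in most substrate libraries.

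Macrophage markers separated the 3D libraries from one another. Of 22 markers, 17 were called higher in 3D, 21 without 3D replicate 3, 8 without 3D replicate 1 and 1 with 3D replicate 3 alone. With only the 3D and soft libraries in the fit 1 was called. The 3D libraries all lay above the soft libraries for 2 markers, against 24% of all genes tested. C1qb, a subunit of the complement component made by macrophages, had 545, 381 and 11.5 CPM in 3D against 29.2, 9.78 and 13.5 CPM. None of the 22 markers was at 0 in the libraries of either group. Immediate early genes followed the same libraries: 11 of 21 rose and 2 fell, while with 3D replicate 3 alone 2 rose and 9 fell, and with only the 3D and soft libraries in the fit 4 rose. Fos had 446, 528 and 45.9 CPM in 3D against 37.2, 34.1 and 37.7 CPM, and Fosb 214, 260 and 9.82 CPM against 11.7, 21.9 and 26.7 CPM. Jund was more even, at 309, 335 and 332 CPM against 187, 168 and 188 CPM (log2 0.85 ± 0.11, adjusted p = 1.8e-06). Of 33 interferon response genes 7 rose and 3 fell, both below the shares of all genes tested, 22.6% and 23.3%. Without soft replicate 3 only 1 rise was called.

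Markers of further cell types were read the same way. Lymphocyte markers summed to at most 1.22 CPM in any library of either group. Among cardiomyocyte markers, Myl7 was at 0 in all 6 libraries and Myh7 in all but soft replicate 3, and the list's sum of 824 to 969 CPM in 3D and 487 to 503 CPM on the soft substrate was mostly Atp2a2, the calcium pump SERCA2, which many cell types express (756, 762 and 759 CPM against 484, 500 and 474 CPM). Tnnt2, a troponin of heart muscle, is the other member that rose, with 64.4, 70.3 and 203 CPM in 3D against 1.98, 1.54 and 7.49 CPM. Endothelial markers summed to 349 to 459 CPM in 3D and 490 to 527 CPM on the soft substrate, a sum made up mostly of Eng (217, 232 and 368 CPM against 442, 424 and 468 CPM), which fibroblasts express too. Of the 16 endothelial markers tested, 3 rose and 2 fell, and their mean log2 level was 2.65, 2.91 and 1.23 in 3D against 1.85, 1.84 and 1.56. Among them, chosen after their values were seen, Pecam1, an adhesion protein of endothelial junctions, had 6.14, 8.79 and 2.05 CPM in 3D against 3.08, 3.55 and 1.79 CPM, and Kdr, a receptor of VEGF, rose from 0.513, 0.804 and 0.527 CPM to 5.89, 5.30 and 0.902 CPM. By mean log2 level, endothelial and macrophage markers were thus both higher in 3D replicates 1 and 2 than in 3D replicate 3. The endothelial sum went the other way, at 349, 374 and 459 CPM in 3D replicates 1, 2 and 3. So did its members Eng and Flt1, the latter at 9.04, 8.55 and 39.1 CPM. Epicardial and mesothelial markers summed to 157 to 191 CPM in 3D and 463 to 536 CPM on the soft substrate. Of 13 tested, 3 fell, near the share of all genes tested, 23.3%, and 1 rose. The falls included Aldh1a2, which makes retinoic acid, from 188, 218 and 62.9 CPM to 21.4, 26.1 and 7.71 CPM.

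For a second kind of gene group, standard 2D stood with 3D, and the substrate libraries stood apart. Sex-linked counts split the libraries in the same way. Standard 2D had 5998, 4780 and 6954 Xist counts and 2, 1 and 1447 Ddx3y counts, a pattern shared with 3D. At 8 and 64 kPa, Xist had 2 to 7 counts and Ddx3y 680 to 1391, as on the soft substrate. Preparation and sex therefore cannot be told apart from culture in this grouping either. Of the 6443 genes called (45.9%), the mean log2 level in standard 2D was nearer to 3D than to the soft substrate for 498 of those higher in 3D (15.7%) and 435 of those lower (13.3%). Among cytokines and chemokines, 11 of 19 called members stood on that side. Of 25 tested, 17 were lower in 3D than on the soft substrate and 2 higher (median -1.86), yet only 5 were negative and 2 positive in the contrast of steps (median -0.35). Cxcl1, which attracts neutrophils, had 12.8, 12.9 and 1.08 CPM in 3D, 329, 498 and 85.4 CPM on the soft substrate and 4.46 ± 0.790 CPM (SD, n = 3) in standard 2D. Il6 had 6.70, 6.83 and 1.60 CPM in 3D, 196, 263 and 26.0 CPM on the soft substrate and 18.7 ± 10.5 CPM in standard 2D. For Ccl2, which attracts monocytes, the values were 84.3, 59.8 and 5.10 CPM, 583, 792 and 211 CPM, and 54.9 ± 15.2 CPM. The difference of the steps did not pass the test for Cxcl1 (0.68 ± 1.21, 95% interval -1.69 to 3.05, adjusted p = 0.69), Il6 (-2.67 ± 1.14, -4.91 to -0.44, adjusted p = 0.07) or Ccl2 (-0.35 ± 0.99, -2.29 to 1.60, adjusted p = 0.81), and these wide intervals do not show that the steps were alike.

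Cxcl5 had the widest gap, with 2.39, 2.53 and 0.174 CPM in 3D against 1099, 1448 and 49.2 CPM, and its soft replicate 3 stood apart from the other soft libraries. Lcn2, an antimicrobial protein often induced with these chemokines, had 213, 427 and 0.316 CPM on the soft substrate and 1.02, 0.669 and 0.521 CPM in 3D. The neutrophil markers S100a9 and Retnlg were at 0 in all 6 libraries. Csf1, the growth factor of macrophages, belonged to the first kind: it had 269, 304 and 387 CPM in 3D, 1885, 2381 and 3024 CPM on the soft substrate and 2647 ± 1214 CPM in standard 2D, and its steps differed by -3.21 ± 0.36 (adjusted p = 5.8e-07). With only the 3D and soft libraries in the fit, 9 cytokines fell.

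**Figure D5:**
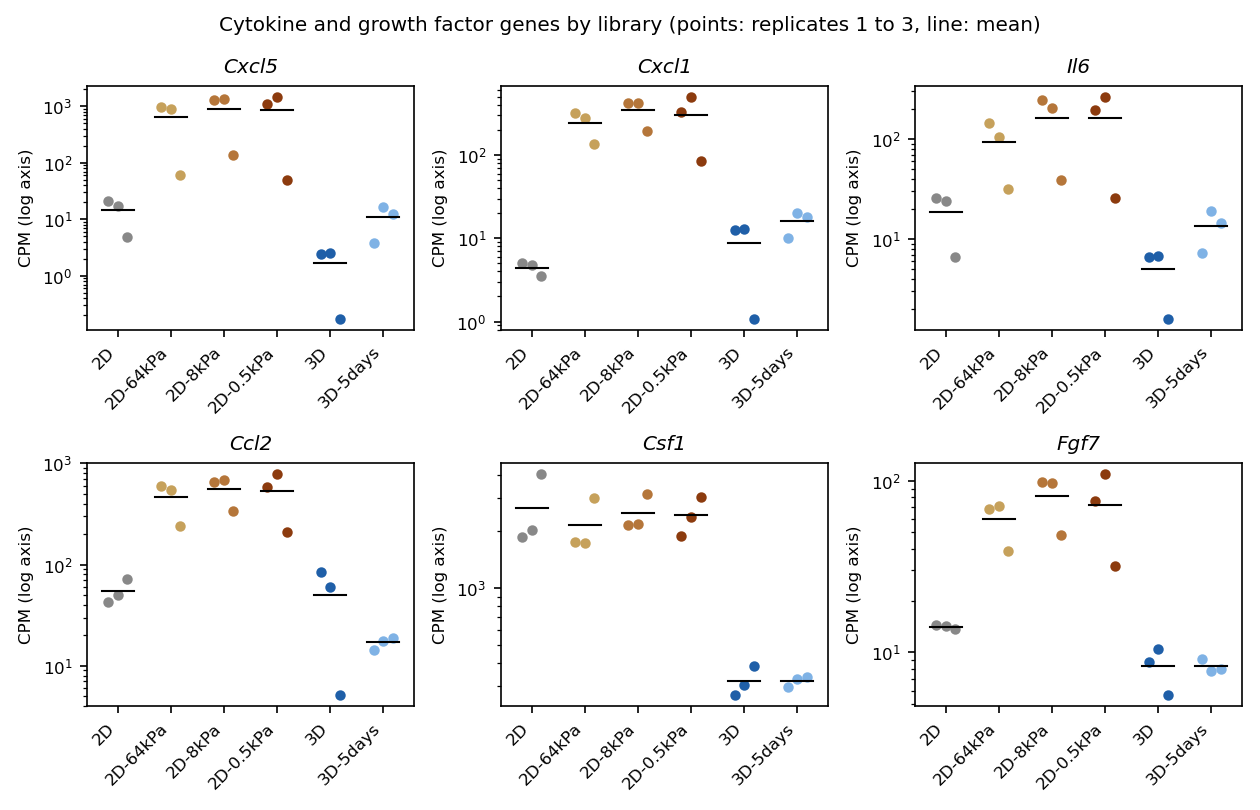
Levels of 6 cytokine and growth factor genes in CPM on log axes in 6 groups of 3 libraries, with points for replicates 1, 2 and 3 from left to right and lines for the mean. Cxcl5, Cxcl1, Il6, Ccl2 and Fgf7 are higher in the 3 substrate groups than in 2D, 3D and 3D-5days, while Csf1 is lower only in the 3D groups shown.

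For glycolysis genes the layout depended on the replicate. The mean log2 level of the list was 7.17, 7.13 and 6.25 on the soft substrate, 6.54, 6.42 and 5.78 in 3D and 6.22, 6.23 and 6.25 in standard 2D, so soft replicates 1 and 2 stood apart while soft replicate 3 lay with standard 2D and below 3D replicates 1 and 2. Of 26 glycolysis and hypoxia genes, 13 fell and 2 rose in 3D against the soft substrate (median -0.75), with standard 2D nearer to 3D for 10 of the 15, and 2 were negative in the contrast of steps. Pkm, pyruvate kinase, had 1643, 1409 and 1328 CPM in 3D, 2729, 2804 and 2116 CPM on the soft substrate and 1590 ± 117 CPM in standard 2D. In 3D at 5 days 5 of the 26 were lower than on the soft substrate. Adm, the vasodilator peptide adrenomedullin, was an exception, at 13.4, 17.2 and 22.8 CPM in 3D, 124, 130 and 141 CPM on the soft substrate and 153 ± 42.3 CPM in standard 2D. Of 23 NRF2 targets, 13 fell and 3 rose, and standard 2D was nearer to 3D for 9 of the 16. In the contrast of steps 6 NRF2 targets were positive and 4 negative.

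Growth factor pathways held members that moved in both directions. Igf1 rose from 38.0, 22.6 and 26.0 CPM to 511, 376 and 111 CPM (log2 3.52 ± 0.56), while its receptor Igf1r fell from 238, 221 and 389 CPM to 88.2, 86.5 and 164 CPM. Of 17 genes of the insulin-like growth factor axis, 7 rose and 2 fell. Tgfb1 and Tgfb3, ligands that drive fibrosis, rose to 311, 293 and 301 CPM from 120, 120 and 89.2 CPM, and to 181, 204 and 214 CPM from 74.6, 61.1 and 59.9 CPM. The receptor Tgfbr2 rose by 1.14 ± 0.13 on the log2 scale, and Fst, an antagonist of activins, fell by 1.69 ± 0.22. In all, 7 of 22 TGF-beta pathway genes rose and 7 fell, beside 22.6% and 23.3% of all genes tested.

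Among 28 secreted growth factors, 7 rose and 13 fell. Agt, angiotensinogen, had 91.7, 103 and 113 CPM in 3D against 0.660, 0.402 and 0.316 CPM (log2 7.74 ± 0.62, adjusted p = 3.7e-09). The neurotrophin Bdnf fell by 2.42 ± 0.18 on the log2 scale. Of the Wnt genes, 5 of 22 rose and 5 fell, near the shares of all genes tested, 22.6% and 23.3%. Dkk3 had 264, 292 and 245 CPM in 3D against 11.4, 7.64 and 5.91 CPM. Of 14 Notch pathway genes 4 rose and 3 fell, not far from those shares. The targets Heyl and Hey1 were among the rises, at 96.3, 104 and 132 CPM against 4.32, 1.47 and 3.06 CPM, and at 8.23, 9.50 and 3.61 CPM against 0.293, 0.201 and 0.422 CPM. Of 21 BMP pathway genes 5 rose, near the 22.6% of all genes tested, and 7 fell. The ligands Gdf6 and Bmp4 were lower by 2.17 ± 0.16 and 2.59 ± 0.35 on the log2 scale.

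Chaperones of the endoplasmic reticulum were slightly lower. Of 22 unfolded protein response genes, 9 fell and 2 rose. Dnajc3, Manf and Hyou1 fell by 0.74 ± 0.11, 0.92 ± 0.17 and 0.75 ± 0.14 on the log2 scale. Ddit3 (CHOP), a stress-induced transcription factor, rose from 9.67, 9.98 and 12.2 CPM to 50.7, 52.4 and 52.8 CPM, and standard 2D, at 33.4 ± 15.9 CPM, was nearer to 3D.

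The 3D libraries at 5 days, set against the same soft libraries, gave 7061 called genes (50.3%). They share the soft group with the main comparison, so the values are given side by side. Contractile genes fell in 25 of 30 cases and mitosis genes in 26 of 26, with medians of -1.31 and -5.24. Lysosomal genes rose in 36 of 36 cases, with a median of 1.25. Macrophage markers summed to 16000, 5000 and 5930 CPM in these 3D libraries, against 883 to 2000 CPM on the soft substrate. The part of macrophage RNA in their lysosomal levels was not tested. Mmp2 stood at 6617 CPM on average in 3D at 5 days and 4121, 4613 and 2376 CPM in 3D, and Lox at 184 CPM on average and 211, 236 and 772 CPM. Dkk3 was lower at 5 days, at 93.3 CPM on average, than in any 3D library of the main comparison, and C4b, a complement component, higher, at 434 CPM against 57.9, 61.8 and 28.5 CPM in 3D.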

How the data were processed

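RNA was measured in 29 libraries in 10 groups. The 2 ATAC libraries of the 31 samples were not analysed here. The deposited table holds raw read counts per gene, made by the authors. The submitters' processing notes name TopHat, HTSeq, Bowtie and mm10 without saying what each was used for. Neither labels nor headers state versions, strand setting or annotation. The 5 summary lines, of which reads without a unique alignment made up 16.3% to 28.4% in the 6 libraries compared, were left out of library sizes. Of 24421 genes, the 14036 kept by filterByExpr were tested with edgeR 4.0.16 (R 4.3.3, limma 3.58.1) by a robust quasi-likelihood fit over all 29 libraries with 1 mean per group, TMM scaling and Benjamini-Hochberg adjustment. CPM used the TMM-scaled totals, and log2 levels a prior count of 2. In simulated counts 75% of genes changed 2-fold and 98% of those changed 4-fold were recovered, with 7 unchanged genes called among 13853. The simulated libraries were drawn independently around 1 mean per group, and only genes above a set level on the soft substrate were changed. They held neither the likeness of replicates 1 and 2 nor a difference of preparation or sex. The simulation therefore gives no error rate for the calls made here.

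The members and gene lists were chosen with earlier results of these data known. Named genes were the 12 largest non-overlapping rises and falls whose mean log2 CPM reached 3, up to 4 called members of smallest adjusted p per list (the 2 most abundant where none was called), a panel of cardiac fibroblast genes, and the 6 largest differences of steps each way. The text gives part of them. Promoters came from RefSeq, with an entry for 11078 tested genes. Alternatives were other scalings and filters, DESeq2 1.42.0, autosomal genes only, only the groups compared, a replicate block, the most alike libraries summed, 3D replicate 3 alone, and each library left out.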

Additional observations from a re-analysis of the deposited data

How the results depend on the processing

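For 3D against the soft substrate, 1987 genes were higher with only the groups compared in the fit, 2089 with the most alike libraries summed, and 1467 higher and 1483 lower with the replicate block. The block left 7 DNA replication, 19 mitosis, 19 ribosomal protein and 9 focal adhesion genes lower, and 35 lysosomal and 7 adipogenic genes higher. Summing the most alike libraries left 1357 positive and 1911 negative differences of steps. For 3D at 5 days against the soft substrate the block gave 2007 higher and 1968 lower, and the groups compared alone 2420 lower. Same-numbered libraries deviated together with r = 0.246, -0.0489 and 0.129, so the numbers were not taken as pairs. Leaving out 1 library gave 2480 to 2990 genes higher and 2788 to 3377 lower in the main comparison, 1882 to 2462 and 2453 to 3020 for the steps, 2779 to 3167 and 3128 to 3534 for 3D at 5 days, and 3145 to 3586 and 3433 to 3870 for 3D against 2D. Between 0.5 and 64 kPa edgeR called 0 genes under each setting run, DESeq2 called 0, and 175 had an unadjusted p under 0.05. Scaling by totals put the all-gene median at 0.138 for the steps and 0.161 for 3D against 2D. With 3D replicate 3 alone, the log2 difference from the soft substrate changed sign for Aif1 (-1.27), Atp6v0d2 (-0.88), C1qb (-0.61), C1qc (-0.75), Ccl6 (-6.86), Cd36 (-1.88), Fosb (-1.03), H2-D1 (-0.13) and Lum (-1.03), as did the difference of steps for Ccl6 (-1.33) and Cd36 (-0.42). The cause was not tested. Over the named genes and all settings, 11 values reversed, 1 gained the call and 3502 stayed on the same side of the threshold. The remaining values lost the call, and they far outnumbered the reversed ones. In the main comparison such losses were most frequent with the replicate block, then with 3D replicate 3 alone and with only the groups compared. The values that stayed include some not called, whose sign is not set, such as Ccl6 with the block (-0.54 against 0.59). The soft libraries were the shallower ones, and genes at a few reads there have poorly set folds.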
